A study of Mus musculus with 10 samples.

Results

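Imprinted genes were followed in the liver of mice from reciprocal crosses, as a list of 58 genes out of the 41388 genes counted. The members were taken by name from a list of mouse genes with a known parental bias. This rule uses no measured value of the libraries, but the list was drawn up with earlier results of these data known. The paper had already reported Peg3, Zrsr1, Commd1, H13 and Mcts2 from these libraries. Counts of members set beside all genes are therefore no independent test. From textbook knowledge, 30 members were entered as maternally expressed, 21 as paternally expressed and 7 as genes whose bias depends on the isoform or the tissue. For many of them, also in the maternal and paternal classes, the bias is known only from placenta, brain or fetal tissue. Ube3a, Trappc9, Slc22a2 and Slc22a3 are such members of the maternal class. A class is therefore a label of the gene and not the allele read in liver. The counts used here hold no information on alleles.

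An imprinted gene is read from one parental chromosome and kept silent on the other, by methylation that is laid down in the egg or the sperm and copied after fertilisation. Imprinted genes lie in clusters that share a control region, and many of the growth-promoting members are paternally expressed while many growth-restraining members are maternally expressed. A large share of them is active in the fetus and is switched down in the liver after birth.

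The libraries came from livers at 10 weeks of age. The matBFMI group held 3 F1 males with a mother of the obese strain BFMI860-12/Hber (BFMI, a Berlin Fat Mouse line) and a father of the lean strain C57BL/6NCrl (B6N), and the patBFMI group held 3 F1 males of the opposite cross, with a B6N mother and a BFMI father. The paternal copy of each autosomal gene was therefore of B6N origin in matBFMI and of BFMI origin in patBFMI. The 3 males of a group had different mothers, and both groups received a high fat diet between weaning at day 21 and dissection at day 70. BFMI and B6N were each represented by 1 male and 1 female of the inbred strain. The sample records gave a standard breeding diet for the parental animals, and the design text gave a high fat diet for the inbred mice. The paper states that the sequenced inbred mice were raised on a high fat diet, and gives the standard diet for the parents.

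The windows around the gene starts of 3 paternally expressed members are shown first. Peg3 was the member that passed the test between the F1 groups in edgeR. Zrsr1 did not pass in edgeR but passed in DESeq2, and Mcts2 is a paternally expressed retrogene that passed in neither. Sgce had the same outcome as Zrsr1 in both tools, but no promoter window was available for it. The windows run for 250 bases before and 50 bases after the annotated start, 5′ to 3′ on the strand of the gene, in RefSeq's GRCm38.p6 annotation, with each CpG dinucleotide (the site of methylation) in capitals. The Peg3 window lies at chr7:6730370-6730669 on the minus strand, the Zrsr1 window at chr11:22971755-22972054 on the plus strand and the Mcts2 window at chr2:152686898-152687197 on the plus strand.
Peg3: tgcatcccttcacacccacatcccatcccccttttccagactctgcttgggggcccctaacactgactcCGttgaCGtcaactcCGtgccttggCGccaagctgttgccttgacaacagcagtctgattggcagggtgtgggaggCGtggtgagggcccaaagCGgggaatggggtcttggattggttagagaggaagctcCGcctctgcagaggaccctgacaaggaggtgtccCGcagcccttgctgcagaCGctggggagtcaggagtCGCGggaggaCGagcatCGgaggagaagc
Zrsr1: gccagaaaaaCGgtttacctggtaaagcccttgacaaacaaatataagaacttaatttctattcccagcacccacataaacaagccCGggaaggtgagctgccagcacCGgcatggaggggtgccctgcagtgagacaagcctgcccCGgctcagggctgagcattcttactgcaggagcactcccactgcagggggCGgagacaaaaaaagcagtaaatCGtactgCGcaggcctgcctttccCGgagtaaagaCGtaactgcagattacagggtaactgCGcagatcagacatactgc
Mcts2: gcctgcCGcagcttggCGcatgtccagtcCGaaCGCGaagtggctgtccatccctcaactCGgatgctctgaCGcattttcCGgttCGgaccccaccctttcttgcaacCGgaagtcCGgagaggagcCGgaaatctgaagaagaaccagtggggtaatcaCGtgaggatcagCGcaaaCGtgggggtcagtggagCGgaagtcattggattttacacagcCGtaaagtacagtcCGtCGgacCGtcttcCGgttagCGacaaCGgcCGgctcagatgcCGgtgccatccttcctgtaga
The Peg3 window held 13 CpG, the Zrsr1 window 10 and the Mcts2 window 25, against a median of 7 over 32851 promoter windows of this length. Peg3 and Usp29, a deubiquitinase gene on the other strand, start 146 bases apart, and their windows share 263 of 300 bases. The hexamer TGCCGC, the core of the site bound by the zinc finger protein ZFP57 once it is methylated, was searched on both strands. It was present in 1 copy in the Mcts2 window and was not found in the windows of Peg3 and Zrsr1. Over the 47 members with a window, 16 genes held the hexamer in at least 1 window (34.0%), against 13.1% of all 27025 genes. The hexamer contains a CpG, and the members' windows held a median of 15 CpG. A match describes these letters and not a bound site.

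The libraries held between 46988713 and 96023811 reads assigned to genes, the highest in the BFMI male. The number of genes with any count ranged from 22415 to 26694 in matBFMI, from 22095 to 32421 in patBFMI and from 29942 to 34572 in the inbred mice. By the column headers, all matBFMI libraries were sequenced on one lane and all patBFMI libraries on another, so the lane and the cross cannot be told apart. The 8 hepatocyte markers summed to between 70550 and 95940 CPM (counts scaled to library size) in all libraries. Alb alone gave 38230 to 68680 CPM of these sums, so they say little about the other markers. Cps1 had 2503 CPM in the BFMI male, against 4891 to 7253 CPM in the other libraries, and Tat ranged from 587 to 1976 CPM. The markers of other tissues stood apart in a few libraries. The 4 skeletal muscle markers summed to 18.7 CPM in matBFMI 1 and to at most 2.57 CPM elsewhere. The 4 pancreas markers summed to 54.7 CPM in the B6N female and 10.3 CPM in the B6N male, and to at most 0.315 CPM elsewhere. The 9 Kupffer cell markers (liver macrophages) summed to 190–220 CPM in matBFMI and 243–257 CPM in patBFMI, and to 219–293 CPM in BFMI and 391–412 CPM in B6N. In whole liver, fewer cells of a type and less RNA per cell cannot be told apart, and the part of these markers in the members' values was not tested.

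Of the 58 members, 28 (48.3%) reached a mean of 1 RPKM over the 10 libraries (reads per kilobase of exon, scaled to library size), against 29.8% of all genes. They were 16 of 30 maternally expressed, 7 of 21 paternally expressed and 5 of 7 isoform- or tissue-dependent members. Another 24 members lay between 0.1 and 1 RPKM and 6 lay below 0.1 RPKM. The paternally expressed amino acid transporter Slc38a4 had the highest mean RPKM of all members, with 297.2. It was followed by the maternally expressed genes Cd81, a tetraspanin of the cell surface, with 69.8 RPKM, Dcn, the matrix proteoglycan decorin, with 66.4 RPKM, and Slc22a18, a transporter of organic cations, with 28.9 RPKM. The next paternally expressed members were far lower than Slc38a4. Impact, a regulator of the amino acid starvation response, averaged 5.29 RPKM, and Mcts2, a translation factor retrogene inside an intron of H13, averaged 4.49 RPKM.

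**Figure D1:**
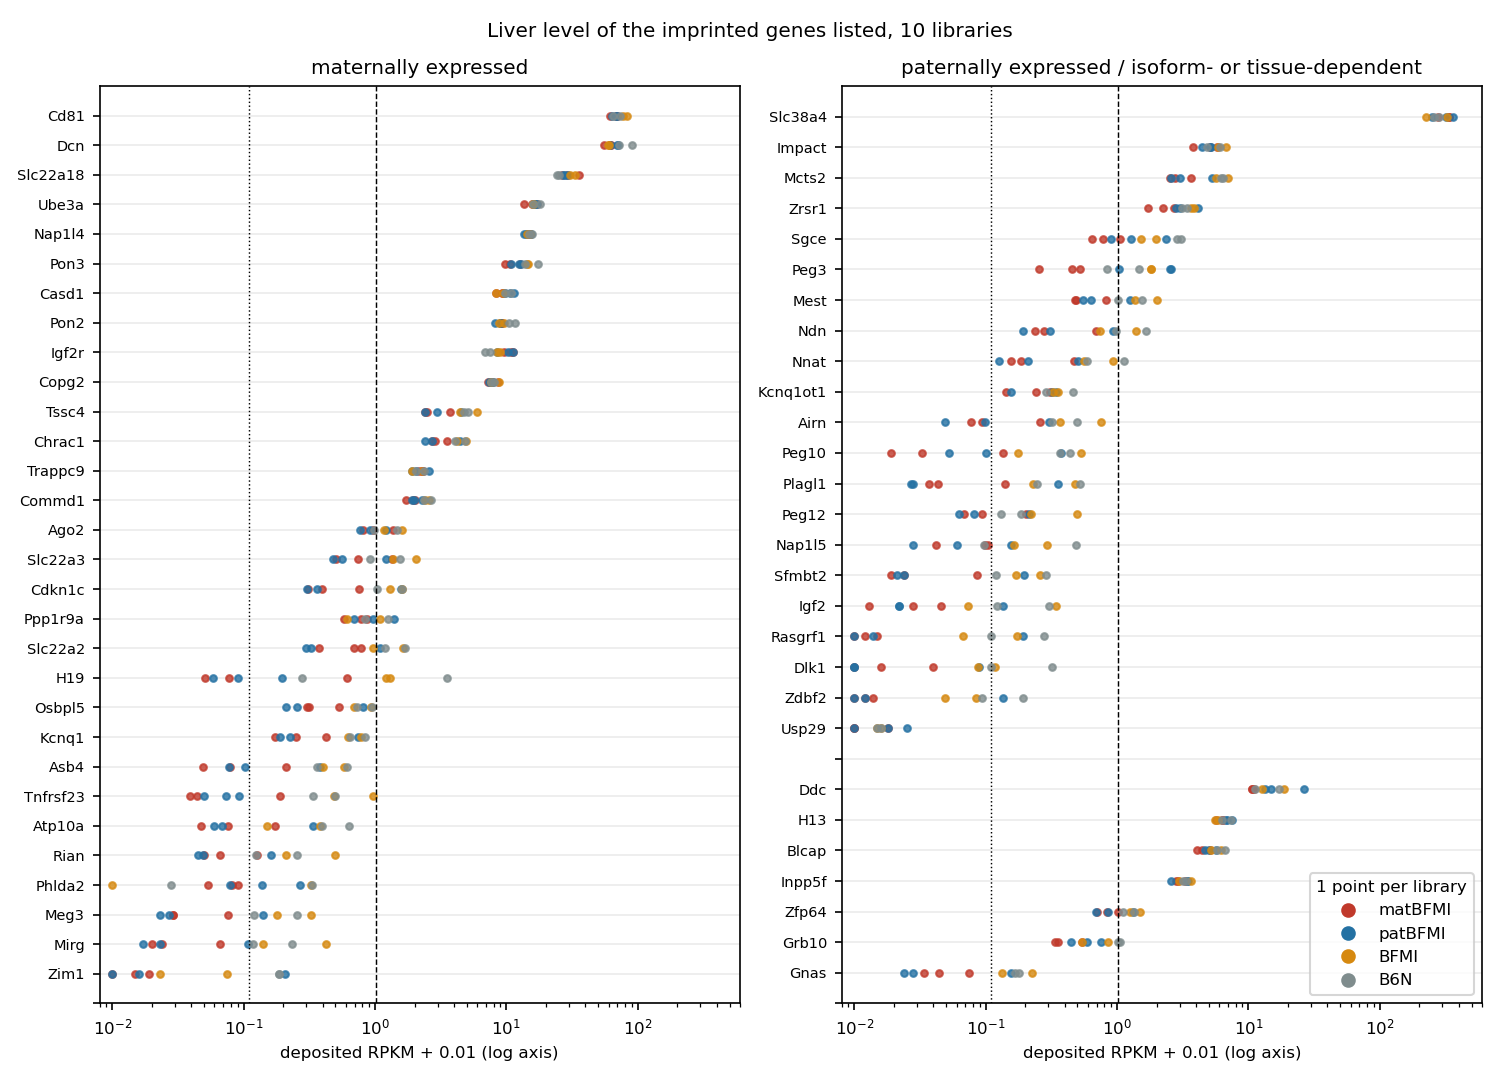
Deposited RPKM (plus 0.01, log axis) of all 58 members in each of the 10 libraries, with maternally expressed members on the left and the other members on the right, 1 point per library. The dashed line marks 1 RPKM and the dotted line 0.1 RPKM, and 28 members have a mean to the right of the dashed line.

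Over all 58 members the median of these means was 0.906 RPKM. The fetal growth factor gene Igf2 lay well below it and averaged 0.101 RPKM, with 1 to 43 counts in a library. In the GENCODE annotation, 62.8% of the Igf2 exon sequence overlaps another gene on the same strand. The Notch ligand family gene Dlk1 averaged 0.0710 RPKM. Closer to the median, the Prader-Willi region gene Ndn had 0.731 RPKM and the cell cycle inhibitor gene Cdkn1c had 0.913 RPKM. For Cdkn1c, 30.65% of the exon sequence overlaps a gene on the other strand. Gnas, the gene of the stimulatory G protein subunit, had 270 counts over all libraries together, and 22.0% of its exon sequence overlaps transcripts of the other strand. The strand setting of the counting was not given in the sources used here. The part of these overlaps in the counts was not tested, and the count of Gnas is not taken as its level in liver.

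Between the F1 groups, 48 of the 58 members had enough counts to be tested, and 1 of them passed an adjusted p of 0.05, against 0.143% of all 16797 genes tested. This was Peg3, the paternally expressed zinc finger gene at the head of a cluster on chromosome 7 (GRCm38, 6703892-6730431, minus strand). It was lower in matBFMI, a direction in which 0.0476% of all genes passed. At an unadjusted p under 0.05 there were 7 members, all lower in matBFMI, which is 7 of 48 beside 4.70% of all genes in that direction and 9.85% in both. These were Peg3, Sgce, Zrsr1 and Peg10 among the paternally expressed members, Casd1 and Ppp1r9a among the maternally expressed members, and Ddc.

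Peg3 had 6.50, 7.35 and 4.73 CPM in matBFMI, against 32.2, 16.1 and 33.8 CPM in patBFMI. All matBFMI libraries lay below all patBFMI libraries, and the second patBFMI male was the lowest of its group. Peg3 thus had a log2 fold change of −2.16 ± 0.283 (SE, adjusted p = 0.0409, edgeR), a level in matBFMI of 0.224 times that in patBFMI. In raw counts these were 348, 423 and 250 reads in matBFMI and 1637, 756 and 2005 reads in patBFMI. The call was lost when matBFMI 1, 2 or 3 or patBFMI 1 or 3 was left out (adjusted p between 0.0797 and 0.193, log2 fold change between −2.30 and −1.99), and was kept without patBFMI 2 (adjusted p = 0.00504). It was also lost with limma on the deposited RPKM (adjusted p = 0.622 with a pseudocount of 1).

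The other members of the Peg3 cluster gave no level to compare. Usp29 had 8 reads over all 10 libraries. Zim1, a maternally expressed zinc finger gene downstream of Peg3, had 1, 2 and 0 reads in matBFMI, against 11, 1 and 0 reads in patBFMI. Both were below the minimum for testing between the F1 groups.

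Zrsr1 is a paternally expressed retrogene that encodes a splicing factor and lies within an intron of the maternally expressed gene Commd1, a regulator of copper export and of NF-kappaB. It had 8.58, 8.77 and 7.56 CPM in matBFMI, against 10.9, 11.5 and 11.2 CPM in patBFMI. The groups did not overlap, with a gap wider than the spread within each group. The log2 fold change was −0.45 ± 0.0939 (SE), which did not pass after adjustment in edgeR (adjusted p = 0.140) and passed in DESeq2 (adjusted p = 0.0364). DESeq2 called 3 members between the F1 groups (Peg3, Sgce and Zrsr1), beside 1.82% of all genes. Commd1 around it had 11.8, 13.1 and 12.6 CPM in matBFMI, against 10.9, 14.1 and 12.7 CPM in patBFMI, with a log2 fold change of −0.02 ± 0.103 (SE). The exons of both genes overlap in part (9.17% of Zrsr1), and reads of Zrsr1 can be shared with its X-linked parent gene Zrsr2.

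H13, the gene of signal peptide peptidase, hosts Mcts2 in an intron and is known to end at different polyadenylation sites on the maternal and the paternal chromosome. H13 had 57.4, 51.3 and 57.3 CPM in matBFMI, against 64.2, 63.4 and 60.0 CPM in patBFMI. The groups did not overlap, and the log2 fold change was −0.19 ± 0.0895 (SE, adjusted p = 0.538, edgeR). Mcts2 had 2.82, 3.34 and 3.48 CPM in matBFMI, against 2.54, 3.54 and 3.61 CPM in patBFMI, and these ranges overlapped. Gene counts add the isoforms of H13 together, so the choice of polyadenylation site is not seen in them.

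**Figure D2:**
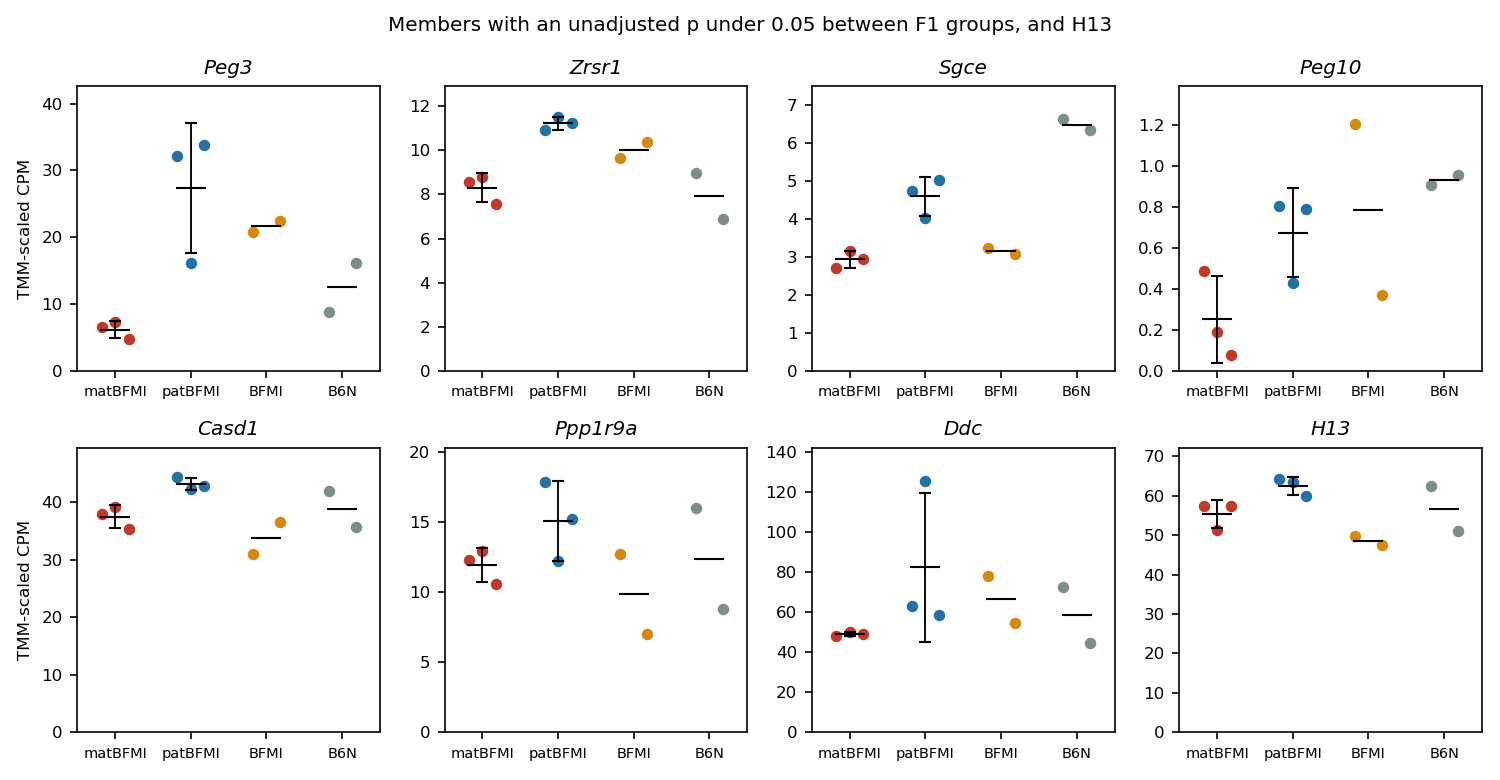
TMM-scaled CPM of 8 members in each library, by group, on axes that start at 0, with the mean as a bar and the SD as whiskers for the groups of 3 (no whiskers for the inbred strains, which have 2 libraries). Peg3, Zrsr1, Sgce, Casd1, Ddc and H13 have all matBFMI points below all patBFMI points, and the Ddc mean of patBFMI is raised by a single library at 125.4 CPM.

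Of the members with an unadjusted p under 0.05, 4 lie side by side in the imprinted cluster on chromosome 6 (GRCm38, from 4600839 at the start of Casd1 to 5165661 at the end of Ppp1r9a). Sgce, the paternally expressed gene of epsilon-sarcoglycan, had 2.71, 3.14 and 2.95 CPM in matBFMI, against 4.72, 4.03 and 5.02 CPM in patBFMI. The groups did not overlap. Its log2 fold change was −0.66 ± 0.137 (SE), with an adjusted p of 0.137 in edgeR and 0.0168 in DESeq2.

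Peg10, a retrotransposon-derived paternally expressed gene needed for the placenta, shares its start region with Sgce. It was much rarer, with 0.486, 0.191 and 0.0756 CPM in matBFMI, against 0.806, 0.427 and 0.792 CPM in patBFMI. Its groups overlapped, at 4 to 26 reads in matBFMI and 20 to 47 reads in patBFMI. Casd1, a maternally expressed sialic acid acetyltransferase gene, had 37.9, 39.2 and 35.2 CPM in matBFMI, against 44.3, 42.3 and 42.8 CPM in patBFMI, without overlap. Its log2 fold change was −0.22 ± 0.0857 (SE, adjusted p = 0.447, edgeR).

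Ppp1r9a, the maternally expressed gene of the actin-binding protein neurabin, had 12.3, 12.96 and 10.6 CPM in matBFMI, against 17.9, 12.2 and 15.2 CPM in patBFMI, with overlap. The paraoxonase genes Pon2 and Pon3 at the other end of the cluster had log2 fold changes of 0.09 ± 0.0896 and −0.10 ± 0.117 (SE), smaller than or close to their errors. Asb4, a maternally expressed gene of the same cluster, had a log2 fold change of −0.38 ± 0.369 (SE) with overlapping groups. In edgeR no member of the cluster passed between the F1 groups after adjustment.

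Ddc encodes the decarboxylase of the dopamine and serotonin pathways and is imprinted in the heart, next to Grb10, an adaptor that dampens insulin and IGF signalling. Ddc had 48.2, 50.2 and 49.0 CPM in matBFMI, against 63.3, 125.4 and 58.6 CPM in patBFMI. The 3 matBFMI libraries were close together, and the second patBFMI male was far above its group mates. Ddc had a log2 fold change of −0.76 ± 0.251 (SE, adjusted p = 0.367, edgeR), which ranged down to −0.33 when single libraries were left out. Grb10 had 4.45, 3.96 and 4.63 CPM in matBFMI, against 4.31, 7.19 and 5.05 CPM in patBFMI, again highest in the second patBFMI male and with overlapping groups.

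In the Igf2r cluster, the paternally expressed antisense RNA Airn silences its neighbours in cis in the placenta. Airn had 0.523, 0.382 and 0.359 CPM in matBFMI, against 0.295, 0.192 and 0.404 CPM in patBFMI. Its maternally expressed targets Slc22a2 and Slc22a3, both organic cation transporters, also had overlapping groups. Slc22a3 had 4.28, 2.29 and 3.86 CPM in matBFMI, against 1.99, 2.97 and 2.14 CPM in patBFMI (log2 fold change 0.55 ± 0.249 SE, adjusted p = 0.527, edgeR). Slc22a2 had 1.103, 1.007 and 2.21 CPM in matBFMI, against 0.728, 1.05 and 0.792 CPM in patBFMI (log2 fold change 0.74 ± 0.329 SE, adjusted p = 0.514, edgeR).

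In the Kcnq1 cluster, the long paternally expressed RNA Kcnq1ot1 plays the like role. It had 19.4, 26.8 and 13.5 CPM in matBFMI, against 24.0, 14.7 and 28.5 CPM in patBFMI, a spread within each group that was wider than the difference between their means. Cdkn1c in the same cluster had 0.953, 0.747 and 1.13 CPM in matBFMI, against 1.14, 0.875 and 0.876 CPM in patBFMI. Its log2 fold change was −0.05 ± 0.244 (SE). Mest had 2.67, 2.47 and 2.80 CPM in matBFMI, against 2.56, 3.201 and 3.18 CPM in patBFMI, with overlap, and shares 23.1% of its exon sequence with the opposite-strand gene Copg2.

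By parental class, the 27 maternally expressed members tested had a median log2 fold change of 0.07, with 17 above 0 and 10 below. The 14 paternally expressed members tested had a median of −0.02, with 6 above 0 and 8 below. Over all genes the median was −0.01, and 51.1% were below 0.

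The groups did not overlap for 3 members with matBFMI above (8.26% of all genes) and 6 with matBFMI below (7.07% of all genes), which is 9 of 48 beside 15.3% in both directions. The members above included Rian, a maternally expressed long RNA of the Dlk1-Meg3 cluster, at 1.16, 1.06 and 0.889 CPM in matBFMI, against 0.688, 0.875 and 0.640 CPM in patBFMI. Osbpl5, a maternally expressed lipid transfer protein gene of the Kcnq1 cluster, had 1.98, 1.91 and 2.29 CPM in matBFMI, against 1.79, 1.56 and 1.57 CPM in patBFMI. Neither passed after adjustment.

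**Figure D3:**
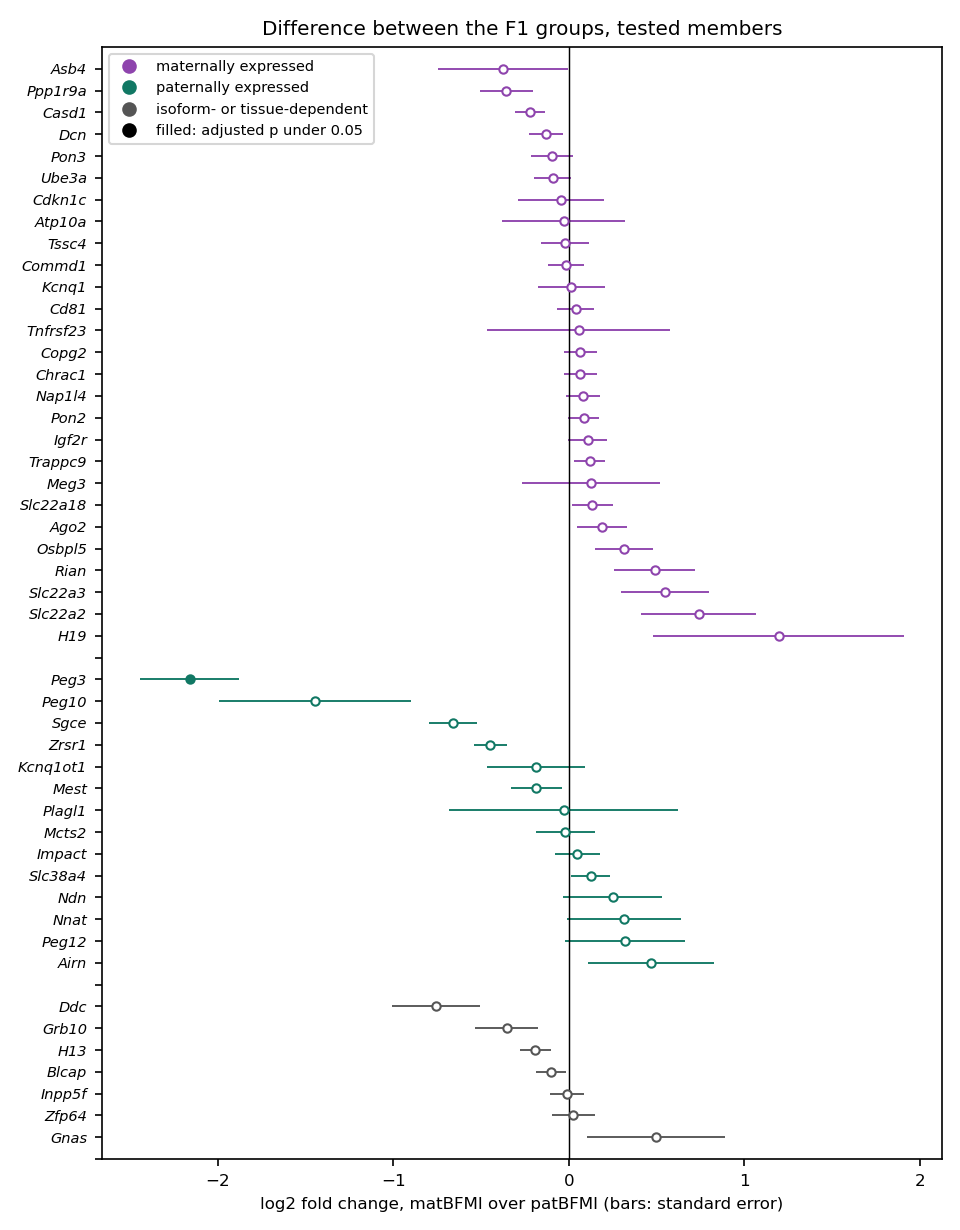
Log2 fold change of matBFMI over patBFMI with its standard error for the 48 members tested, by parental class. The filled point, Peg3 at −2.16, is the member with an adjusted p under 0.05, and the maternally expressed members lie on both sides of 0.

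The 4 members with the highest mean RPKM had overlapping F1 groups. The log2 fold change of Slc38a4 was 0.12 ± 0.112, that of Cd81 was 0.04 ± 0.106, that of Dcn was −0.13 ± 0.0965 and that of Slc22a18 was 0.13 ± 0.116 (SE). Of the members that came next, Ddc (14.6 RPKM), Casd1 (9.72 RPKM) and H13 (6.44 RPKM) had the groups without overlap given above, while Impact had a log2 fold change of 0.05 ± 0.129 (SE). Igf2r, the maternally expressed receptor that clears IGF2, had 93.5, 104.2 and 109.9 CPM in matBFMI, against 92.7, 85.0 and 105.1 CPM in patBFMI, with overlap. Ube3a, the ubiquitin ligase of Angelman syndrome, which is biparental outside neurons, had a log2 fold change of −0.09 ± 0.105 (SE).

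Between the inbred strains, 56 members were tested and 1 passed an adjusted p of 0.05, against 6.67% of all 19974 genes and 3.05% in the direction of the called member. Sgce was lower in BFMI, with 3.24 CPM in the male and 3.07 CPM in the female, against 6.62 CPM in the B6N male and 6.34 CPM in the B6N female. The log2 fold change was −1.04 ± 0.156 (SE, adjusted p = 0.00300, edgeR). It lay between −1.05 and −1.02 when single inbred libraries were left out. Each of those fits rests on 1 mouse per strain, both of the same sex. The call of Sgce was lost with limma on the deposited RPKM (adjusted p = 0.735).

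At an unadjusted p under 0.05 there were 10 members, against 18.3% of all genes (9.72% higher and 8.56% lower in BFMI). Those higher in BFMI were Slc22a18 (log2 fold change 0.44), Mest, an alpha/beta hydrolase gene (0.69), Rian (1.54), Peg3 (0.85), the cation transporter Slc22a3 (0.86) and Zrsr1 (0.34). Those lower in BFMI were Sgce, Grb10 (−0.77), Dcn (−0.36) and Atp10a, a phospholipid flippase (−1.42). DESeq2 called Sgce, Grb10, Dcn and Rian, beside 8.37% of all genes. Several of these values changed widely when 1 inbred mouse was left out. The log2 fold change of Rian was 0.17 and 0.20 without either inbred male and 2.97 without either inbred female, with adjusted p between 0.00219 and 0.831 (edgeR). Without single libraries Mest lay between 0.19 and 1.17, Slc22a3 between 0.24 and 1.49 and Atp10a between −2.31 and −0.67.

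Peg3 had 20.8 CPM in the BFMI male and 22.5 CPM in the BFMI female, against 8.83 CPM in the B6N male and 16.2 CPM in the B6N female. Both BFMI libraries lay above both B6N libraries. The log2 fold change of 0.85 ± 0.332 (SE) had an adjusted p of 0.193 in edgeR and lay between 0.47 and 1.24 without single libraries. Zrsr1 had 9.65 CPM in the BFMI male and 10.4 CPM in the BFMI female, against 8.96 CPM in the B6N male and 6.88 CPM in the B6N female, with an adjusted p of 0.230 (edgeR) and a log2 fold change between 0.10 and 0.62 without single libraries.

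Dcn had 120.1 CPM in the BFMI male and 125.4 CPM in the BFMI female, against 144.3 CPM in the B6N male and 172.5 CPM in the B6N female. Dcn is made by stellate cells and fibroblasts, and the 8 stellate cell markers summed to 346.9 and 285.0 CPM in the BFMI male and female, against 223.1 and 288.5 CPM in the B6N male and female. Their part in the result was not tested.

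Set side by side, the groups contrasted between the F1 males and between the strains shared no library. The F1 libraries were nevertheless part of the fit of the strains and of its spread, so the tests are not independent. For Peg3 the log2 fold change was −2.16 in matBFMI over patBFMI and 0.85 in BFMI over B6N, and for Zrsr1 it was −0.45 and 0.34. In both genes the F1 males with a BFMI father were the higher F1 group. BFMI was the higher strain by its point estimate, which did not pass the test for either gene. The levels were not those of the father's strain for Peg3. In matBFMI, with a B6N father, Peg3 had 4.73 to 7.35 CPM, below both B6N libraries (8.83 and 16.2 CPM). For Zrsr1 matBFMI had 7.56 to 8.77 CPM, between the B6N libraries (6.88 and 8.96 CPM). The part of the strain difference in the F1 difference was not tested. For Sgce both values were negative, at −0.66 and −1.04, so that the F1 males with a BFMI father were the higher F1 group while BFMI was the lower strain. Of the 14 paternally expressed members tested in both comparisons, 7 had the same sign and 7 opposite signs, and of the 27 maternally expressed members 17 had the same sign and 10 opposite signs. Over all genes tested, 59.3% had the same sign. These are counts of signs, most of them of differences within their errors.

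**Figure D4:**
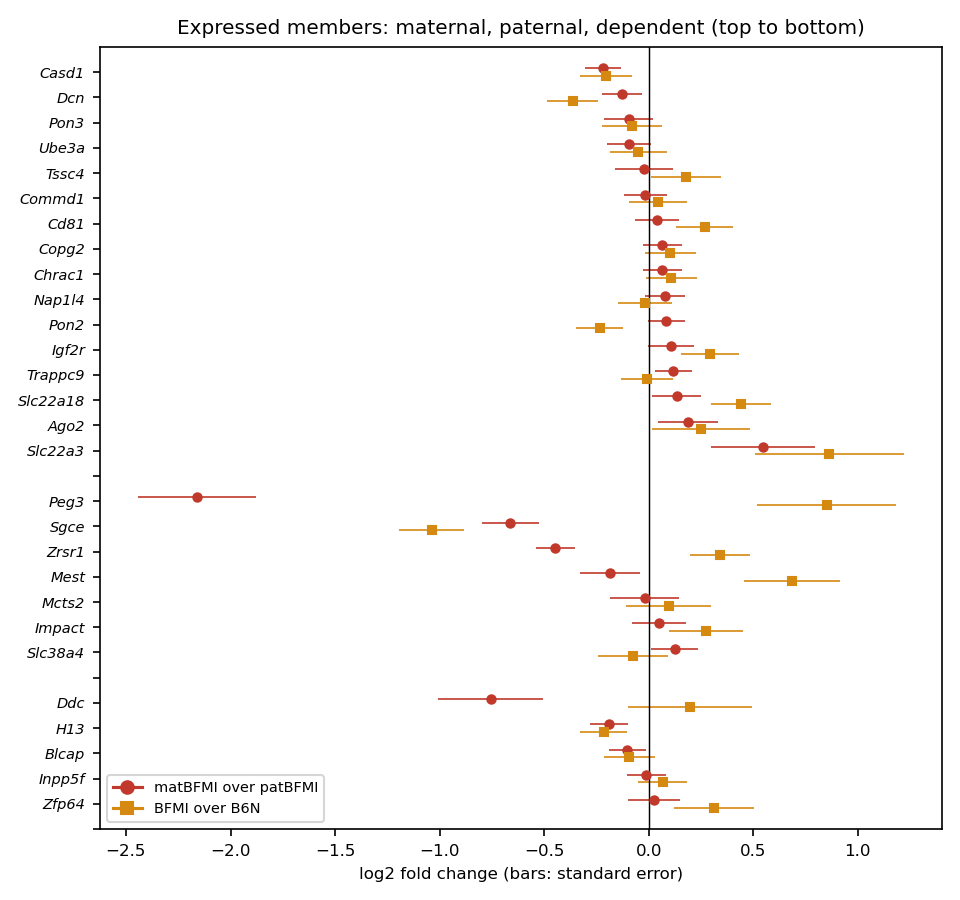
Log2 fold changes with standard errors of the 28 members at 1 RPKM or more, as circles for matBFMI over patBFMI and squares for BFMI over B6N, with the maternally expressed members at the top, the paternally expressed members in the middle and the isoform- or tissue-dependent members at the bottom. Peg3 and Zrsr1 have their circle left and their square right of 0, and Sgce has both on the left.

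Between the F1 males and the inbred mice, with sex as a term, none of the 56 members tested passed an adjusted p of 0.05 in edgeR, against 2.05% of all genes. At an unadjusted p under 0.05 there were 10 members of 56, beside 16.6% of all genes tested. DESeq2 called Trappc9, Igf2r and Meg3, beside 4.36% of all genes. By the column headers, no F1 library shared a lane with an inbred library, so lane and hybrid state cannot be told apart here. Diet differs in the same way by the sample records, but not by the paper.

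Trappc9, a trafficking and NF-kappaB pathway gene that is maternally biased in the brain, had 14.8, 15.3 and 16.7 CPM in matBFMI and 13.9, 15.3 and 13.5 CPM in patBFMI. The inbred mice had 11.5 and 10.5 CPM in the BFMI male and female and 10.7 and 11.5 CPM in the B6N male and female. All 6 F1 males lay above all 4 inbred mice, and the log2 fold change was 0.42 ± 0.102 (SE, adjusted p = 0.0683, edgeR). Igf2r followed the same order, with 85.0 to 109.9 CPM in the F1 males and 59.8 to 78.9 CPM in the inbred mice (log2 fold change 0.42 ± 0.115 SE, adjusted p = 0.10, edgeR).

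The maternally expressed long RNAs of the Dlk1-Meg3 cluster were lower in the F1 males by their point estimates. Meg3 had 0.434 to 0.748 CPM in matBFMI and 0.303 to 0.767 CPM in patBFMI. It had 2.91 and 1.65 CPM in the BFMI male and female, and 0.684 and 1.95 CPM in the B6N male and female. The B6N male lay within the range of the F1 males and the BFMI male was the highest. For Meg3 the log2 fold change was −1.57 ± 0.421 (SE, adjusted p = 0.0959, edgeR). It was −0.26 without the BFMI male (adjusted p = 0.962) and −2.56 without the B6N male (adjusted p = 0.0388), and it also passed without patBFMI 1 (adjusted p = 0.0365).

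Rian had 4.06 CPM in the BFMI male, the highest value, and between 0.517 and 1.51 CPM in the other inbred mice. Its log2 fold change of −0.99 in F1 males over inbred mice turned to 0.63 without the BFMI male and was −2.13 without the B6N male (adjusted p = 0.0138, edgeR). The BFMI male also held the highest level of Mirg, a host of microRNAs in the same cluster, with 93 of the 190 Mirg reads of all libraries. The BFMI male was sequenced to 96023811 reads, on a lane of its own by the column headers. Its 5 cholangiocyte markers summed to 54.8 CPM, against 20.7 to 30.9 CPM in the other libraries. Most of that sum was Spp1 (49.9 CPM), and Sox9 was also highest there (2.31 CPM). Krt19, Krt7 and Epcam had 1.05, 0.810 and 0.721 CPM in the BFMI male, each within the range of the other libraries. The part of depth, lane and these markers in the values of Rian and Mirg was not tested.

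Between the sexes, within the inbred mice, no member passed an adjusted p of 0.05 in edgeR, against 0.556% of all genes. At an unadjusted p under 0.05 there were 2 members of 56, beside 7.80% of all genes tested. DESeq2 called both, beside 1.92% of all genes. Ppp1r9a had 7.01 CPM in the BFMI female and 8.82 CPM in the B6N female, against 12.7 CPM in the BFMI male and 16.0 CPM in the B6N male. Both females lay below both males and below all 6 F1 males, and the log2 fold change was −0.86 ± 0.176 (SE, adjusted p = 0.0730, edgeR).

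H19, the maternally expressed long RNA of the Igf2 cluster, had 1.63 CPM in the BFMI female and 5.28 CPM in the B6N female, against 0.820 CPM in the BFMI male and 0.185 CPM in the B6N male. The log2 fold change of 2.61 ± 0.916 (SE) had an adjusted p of 0.410 in edgeR and was 0.99 when either B6N library was left out and up to 4.82 when either BFMI library was. The B6N female was the library with the highest pancreas markers, and within the F1 males H19 was highest in matBFMI 1, the library with the highest skeletal muscle markers (0.935 CPM there and 0.122 to 0.236 CPM in the other F1 males). Their part in these values was not tested. For the difference in the strain effect between the sexes, no member passed an adjusted p of 0.05, the smallest being 0.172 for Rian (edgeR).

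Of the genes that keep imprints in place or silence them after birth, such as the DNA methyltransferases and ZFP57, 21 of 23 were tested between the F1 groups and 22 in the other comparisons, and none passed in any of the 4 comparisons in edgeR. At an unadjusted p under 0.05 there were 2 of 21 between the F1 groups (9.85% of all genes), 2 of 22 between the strains (18.3% of all genes), 5 of 22 between F1 males and inbred mice (16.6% of all genes) and 2 of 22 between the sexes (7.80% of all genes). Of 13 partners of the IGF system, 12 were tested between the F1 groups and none passed, beside 0.143% of all genes. Between the strains 4 of 13 passed an adjusted p of 0.05, all lower in BFMI, beside 3.05% of all genes in that direction and 6.67% in both. Igfbp2, a binding protein that holds IGFs in the blood, had 13.9 and 30.4 CPM in the BFMI male and female, against 262.0 and 238.5 CPM in the B6N male and female. Its log2 fold change was −3.61 ± 0.374 (SE, adjusted p = 0.000271, edgeR). The other 3 were Igfbp1 (−2.77), Igfbp3 (−0.82) and Irs2, a docking protein of the insulin receptor (−1.11).

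Of 25 further imprinted genes outside the list of members, 10 were tested in the fits over all libraries. In edgeR 1 of 10 passed between the strains (6.67% of all genes) and 1 of 10 between F1 males and inbred mice (2.05% of all genes). Plg, the gene of plasminogen next to the Igf2r cluster, was lower in BFMI, with a mean of 964 CPM in BFMI and 1518 CPM in B6N (log2 fold change −0.66 ± 0.114 SE, adjusted p = 0.00648, edgeR). The paper had already listed Plg among genes with evidence of allelic imbalance in these libraries. Smoc1, a secreted matrix protein gene, was higher in the F1 males than in the inbred mice (log2 fold change 0.56 ± 0.0943 SE, adjusted p = 0.0202, edgeR). The libraries overlapped, with 77.7 to 87.3 CPM in matBFMI and 63.3 to 68.9 CPM in patBFMI. The BFMI male and female had 52.2 and 72.3 CPM, and the B6N male and female 48.4 and 62.0 CPM.

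Among the 30 members below 1 RPKM, the libraries with many detected genes tended to hold the highest values. The B6N female was the highest library for 13 of them and the BFMI male for 6. The 6 members below 0.1 RPKM (Gnas, Rasgrf1, Dlk1, Zim1, Zdbf2 and Usp29) summed to 0.598, 0.452 and 0.605 CPM in matBFMI and 1.95, 0.256 and 0.320 CPM in patBFMI, and to 1.41 and 1.09 CPM in the BFMI male and female and 1.61 and 3.05 CPM in the B6N male and female. Gnas, whose count is not taken as its level, made up most of this sum in matBFMI and in patBFMI 2 and 3. Gnas alone had 0.411, 0.347 and 0.586 CPM in matBFMI, against 0.472, 0.213 and 0.253 CPM in patBFMI. The first patBFMI male stood apart from its group mates in the sum of the 6 members. It also had 32421 genes with a count where they had 22095 and 23490. Rasgrf1, a Ras exchange factor of neurons, had 2, 1 and 0 reads in matBFMI, against 31, 0 and 3 reads in patBFMI.

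For single members the deposited RPKM and the counts could differ in the order of the libraries. Mcts2 had 129 reads and 5.32 RPKM in the first patBFMI male, against 192 reads and 2.73 RPKM in the second matBFMI male. On TMM-scaled CPM per kilobase of exon, 24 members reached 1, against 28 on the deposited RPKM, and 18 members instead of 6 lay below 0.1.

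**Figure D5:**
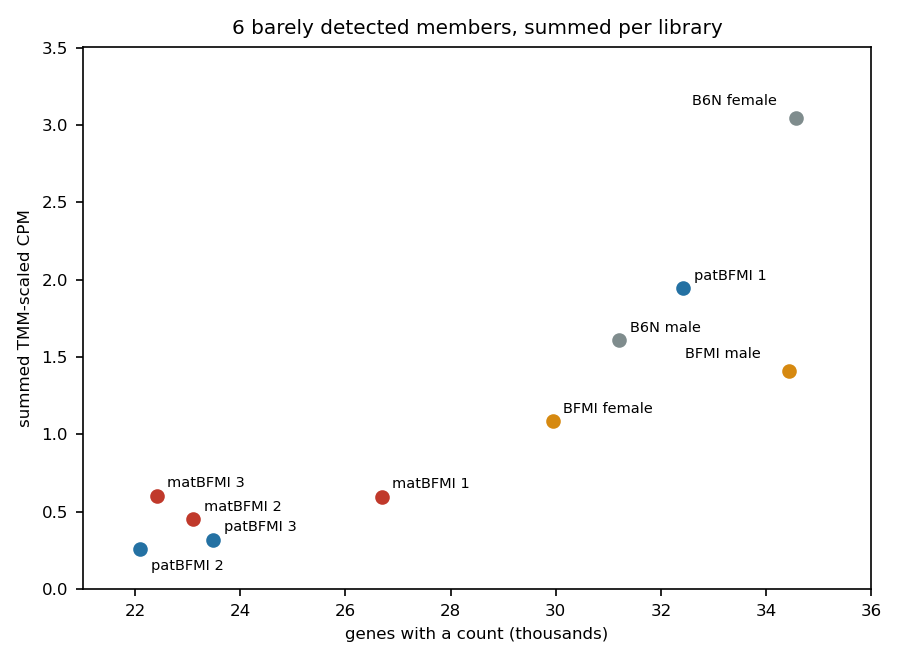
Summed TMM-scaled CPM of the 6 members below 0.1 RPKM in each library, plotted against the number of genes with at least 1 count in that library, coloured by group. The 5 libraries with the most detected genes sum to between 1.09 and 3.05 CPM, and the other 5 libraries lie between 0.256 and 0.605 CPM. Gnas, whose count is not taken as its level, makes up most of the sum in these other 5 libraries.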

How the data were processed

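Liver RNA depleted of ribosomal RNA was sequenced in 10 mice. The authors deposited raw read counts per gene (GRCm38, Ensembl annotation, union mode) and RPKM, which they computed after quantile normalization between samples. The paper names BWA as aligner, while the submitters' processing notes list TopHat2 2.10, Bowtie2 2.2.6, Trimmomatic 0.32 and Picard 1.99. A total of 3 columns without a sample record was not used.

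Counts were compared with the quasi-likelihood test of edgeR 4.0.16 in R 4.3.3 with TMM scaling, Benjamini-Hochberg adjustment over all genes tested and an adjusted p of 0.05. The F1 groups were fitted on their 6 libraries (genes with at least 10 counts in 3 libraries), and the strains, F1 males against inbred mice and the sexes on all 10 libraries with group and sex as terms (at least 10 counts in 2 libraries). The inbred strains have 1 mouse per sex, so their spread is borrowed from the whole fit. CPM are TMM-scaled over 10 libraries. Positions are from GENCODE M21 and promoter windows from RefSeq. The scripts were tested on simulated counts. Other settings tried were DESeq2 1.42.0, limma 3.58.1 on log2(RPKM + 1) and log2(RPKM + 0.1), other scalings and filters, a replicate block, and leaving out single libraries. CPM per kilobase was added as an alternative after the data had been seen. Precision is limited by counting for the rare members and by the number of mice for the others.

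The members, classes and gene lists were chosen with earlier results of these data known. Named were members with an adjusted p under 0.05 in any comparison or an unadjusted p under 0.05 between the F1 groups, members of the Peg3, Zrsr1-Commd1 and Mcts2-H13 loci, the 3 highest of each parental class by RPKM, and list genes that passed. Other members were named after their values had been seen. Of the list genes, 4 were not matched (Snrpn, Snurf, Peg13 and Zfp264). Protein sequences are not analysed here.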

Additional observations from a re-analysis of the deposited data

How the results depend on the processing

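Between the F1 groups, 1 member was called in the analysis reported, 3 with DESeq2, 5 without a filter, 0 with limma on log2(RPKM + 1) or log2(RPKM + 0.1), and 0 to 1 when single libraries were left out. All genes called there were 24, against 12 with all 10 libraries in the fit, 56 with library size only, 305 with DESeq2, 2 with limma at either pseudocount, 696 without a filter and 7 to 63 without single libraries. With the offspring number as a replicate block 175 genes and 1 member were called, Peg3 at −2.11 (log2, adjusted p = 0.0178). Same-numbered males correlated at 0.300, −0.058 and 0.104, so the numbers are not taken to pair them. Between the strains, 1 member was called, against 4 with DESeq2, 7 without a filter, 0 with limma and 1 to 3 without single libraries (Mest and Rian joined Sgce without the BFMI female or the B6N female). All genes called were 1332, against 1671 with DESeq2, 1930 without a filter, 364 with limma and 536 to 799 without single libraries. Between F1 males and inbred mice, 0 members were called, against 3 with DESeq2, 7 without a filter and 0 to 4 without single libraries. All genes called were 410, against 871 with DESeq2, 264 with limma, 1410 without a filter and 13 to 937 without single libraries. Without patBFMI 1, Meg3, Plagl1, Rasgrf1 and Zdbf2 were called, and without the BFMI male 13 genes were. Between the sexes, 0 members were called, against 2 with DESeq2 and 3 without a filter. All genes called were 111, against 384 with DESeq2, 40 with limma, 582 without a filter and 38 to 152 without single libraries. The causes were not tested. Among the members named by rule, signs turned only where the difference lay within its error, and for Rian. Between the F1 groups, Cd81 (0.04) turned to −0.019 with limma at either pseudocount and lay between −0.021 and 0.10 without single libraries. Commd1 (−0.016) turned to 0.066 with library size only and 0.014 without a filter, and lay between −0.092 and 0.066 without single libraries. Impact (0.05) turned to −0.017 and −0.023 with limma at pseudocounts of 1 and 0.1, and lay between −0.017 and 0.16 without single libraries. Mcts2 (−0.019) turned to 0.061 with library size only and 0.010 without a filter, and lay between −0.15 and 0.068 without single libraries. Rian in F1 males over inbred mice (−0.99) lay between −2.13 and 0.63, above 0 without the BFMI male. Members at 1 RPKM numbered 28, against 35 at a limit of 0.5, 22 at a limit of 2 and 27 without patBFMI 1. With 1 mouse per strain and sex, calls between inbred mice rest largely on the spread of the F1 groups, and members with few reads, such as Igf2 and Peg10, cannot show small differences at this depth.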
